A study of Mus musculus with 8 samples.

Results

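Sarcomere genes of heart and skeletal muscle were followed in 8 RNA-seq libraries, each from the whole aorta of 1 mouse. They were 35 of 24411 gene names in the count table, chosen by symbol: 23 genes of heart muscle and 12 of skeletal muscle. Their level was described in each library, as a readout of cardiac or skeletal muscle taken with the aorta, before the groups were compared. The 5 caIKK2EC mice carried caIKK2(+/+), BMXCreERT2(+/-) and ApoE(-/-), and the 3 Control mice were littermates with caIKK2(+/+) and ApoE(-/-) but without the Cre transgene. caIKK2 is a permanently active form of the kinase IKK2, an activator of the transcription factor NF-κB, placed with EGFP behind a loxP-flanked STOP cassette. Cre in this line is driven from the Bmx promoter in arterial endothelium and works after tamoxifen, so only endothelial cells of the caIKK2EC mice were meant to make the kinase. All 8 mice received tamoxifen (1 mg per 20 g of body weight on 5 days) and a Western-type diet for 12 weeks, and in all of them the loss of apolipoprotein E makes plaques form on that diet. The mice were 18 weeks (caIKK2EC 1 and 3, Control 1 and 2) or 19 weeks old (caIKK2EC 2, 4 and 5, Control 3), and all were female except Control 3. No gene was called between the groups by edgeR, and most heart genes were highest in caIKK2EC 1 and Control 1, 1 library of each group.

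The sarcomere is the contractile unit of striated muscle: thick filaments of myosin pull on thin filaments of actin, calcium acts through the troponin complex, titin spans from the Z-disc to the M-band, and the Z-disc anchors the thin filaments. Heart and skeletal muscle use partly different genes for each of these parts, and atria and ventricles differ in their myosin light chains. The aortic wall is made of smooth muscle, which has its own actin (Acta2) and myosin (Myh11) and no sarcomeres. At its root the aorta is joined to the heart, where it borders both ventricular and atrial muscle.

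The libraries held 23461655 to 30808502 counts. Levels are given as CPM, counts relative to library size after scaling with TMM factors, and values of a group follow the replicate numbers. Smooth muscle genes, the defining markers of the labelled tissue, were high in all 8 libraries: the 10 genes of that list summed to 11597 to 24104 CPM in caIKK2EC and 21318 to 41339 CPM in Control libraries, lowest in caIKK2EC 1 and highest in Control 3. The deposited column names carry a 7 for caIKK2EC 1 and the 3 Controls and an 8 for caIKK2EC 2 to 5, which is read here as the sequencing lane, although no label calls it that. caIKK2EC 1 and Control 1 stood apart from the other 6 libraries in heart muscle genes, so the group results of the sarcomere genes that rest on them are given with and without them. In bulk tissue, fewer cells of a type and less RNA per cell cannot be told apart.

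The sequences show how far the reads can be assigned and what these genes share upstream of their starts. RefSeq promoters (build GRCm38.p6, 250 bases before to 50 after the start) were at hand for 29 of the 35 genes. The CArG box, the site of serum response factor, was searched on both strands. A gene was counted if any of its promoters held the motif. The box stood in 5 of the 29 genes (17.2%), against 1.81% of the 27025 genes with a promoter at hand. The 4 printed here belong to genes that the results turn on or that mark the atria, and the capitals mark the CArG box. They lie at chr2:114052826-114053125 (minus strand, Actc1), chr8:123894726-123895025 (minus strand, Acta1), chr9:110763428-110763727 (plus strand, Myl3) and chr11:5898733-5899032 (minus strand, Myl7).
Actc1: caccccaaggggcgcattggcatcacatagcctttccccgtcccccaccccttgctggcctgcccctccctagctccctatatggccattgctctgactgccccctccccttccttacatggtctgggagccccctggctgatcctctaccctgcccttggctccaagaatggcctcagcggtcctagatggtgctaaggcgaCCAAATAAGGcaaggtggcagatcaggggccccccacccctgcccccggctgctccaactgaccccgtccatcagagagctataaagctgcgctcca
Acta1: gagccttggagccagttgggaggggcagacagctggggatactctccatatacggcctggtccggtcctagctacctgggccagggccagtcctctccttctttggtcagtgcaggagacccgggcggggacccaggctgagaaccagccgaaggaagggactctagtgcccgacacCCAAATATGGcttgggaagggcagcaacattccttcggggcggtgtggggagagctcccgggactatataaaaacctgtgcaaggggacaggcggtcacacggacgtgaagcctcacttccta
Myl3: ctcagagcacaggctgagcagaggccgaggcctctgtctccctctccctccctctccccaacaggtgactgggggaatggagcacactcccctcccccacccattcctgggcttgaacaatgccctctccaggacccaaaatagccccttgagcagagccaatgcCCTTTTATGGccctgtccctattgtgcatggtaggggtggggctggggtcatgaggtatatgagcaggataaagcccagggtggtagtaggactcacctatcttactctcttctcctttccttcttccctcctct
Myl7: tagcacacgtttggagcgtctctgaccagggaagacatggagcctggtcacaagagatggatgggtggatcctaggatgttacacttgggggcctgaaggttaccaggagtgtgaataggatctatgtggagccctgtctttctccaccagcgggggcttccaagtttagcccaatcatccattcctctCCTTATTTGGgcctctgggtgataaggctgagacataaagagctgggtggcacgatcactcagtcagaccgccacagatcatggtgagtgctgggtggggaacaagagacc
Between the box and the start lay 37 bases in Actc1, 63 in Acta1, 75 in Myl3 and 51 in Myl7. The other gene with a box was Myh4, a fast myosin that had no read in any of the 8 libraries. The MEF2 motif also stood in promoters of 5 of the 29 genes (17.2%, against 3.7% of all genes), with Ttn and Mybpc3 among them. AGATAA, a motif of the GATA factors, was found in 10.3% of the 29 genes against 12.7% of all genes. CANNTG, the E box, was found in 89.7% against 75%. CANNTG can lie within or across other motifs. These matches are descriptions of letters and not binding sites.

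Reads were 50 bases long, so each gene's longest coding transcript was cut into all windows of 50 bases and looked up in the transcripts of every other gene. Myosin heavy chains shared most: 22.6% of the windows of Myh6 and 22.2% of those of Myh7 also occurred in another gene, with an identical run of 245 bases between this pair. For the fast skeletal chains the share was 26.7% in Myh1, 26.9% in Myh2 and 18.9% in Myh4, so the split of reads among the heavy chains is uncertain. The cardiac actin Actc1 had no shared window. Its longest identical run with the smooth muscle actin Acta2, which is far more abundant here, was 23 bases and is shown because Actc1 is the actin whose level the results turn on.
Actc1 and Acta2: cccagcaccatgaagatcaagat
Exons of 14 of the 35 genes overlap another annotated gene, such as Myh7, which overlaps the antisense gene Mhrt. The strand setting of the counting is unknown from the labels and headers, and reads of such pairs cannot be told apart.

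Summed over the 23 heart genes, the level was 2244, 489, 588, 475 and 438 CPM in caIKK2EC 1 to 5, against 4209, 599.9 and 1006 CPM in Control 1 to 3. Control 1 was the highest library and caIKK2EC 1 the next, and the groups overlapped. The 2 libraries were the 2 highest in 18 of the 23 heart genes and in 17 of the 22 tested, against 907 of 14679 genes tested (6.18%). In 14 of the 23, and in 13 of the 22 tested, both met a 4-fold rule, chosen after the values were seen. By this rule both were at least 4-fold above the highest of the other 6 libraries and at 1 CPM or more. The same rule took 34 of the 14679 genes tested (0.232%), and 15 of these 34 were sarcomere genes of the list (13 heart and 2 skeletal). Of the 10 smooth muscle genes and the 10 brown fat genes it took none.

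**Figure D1:**
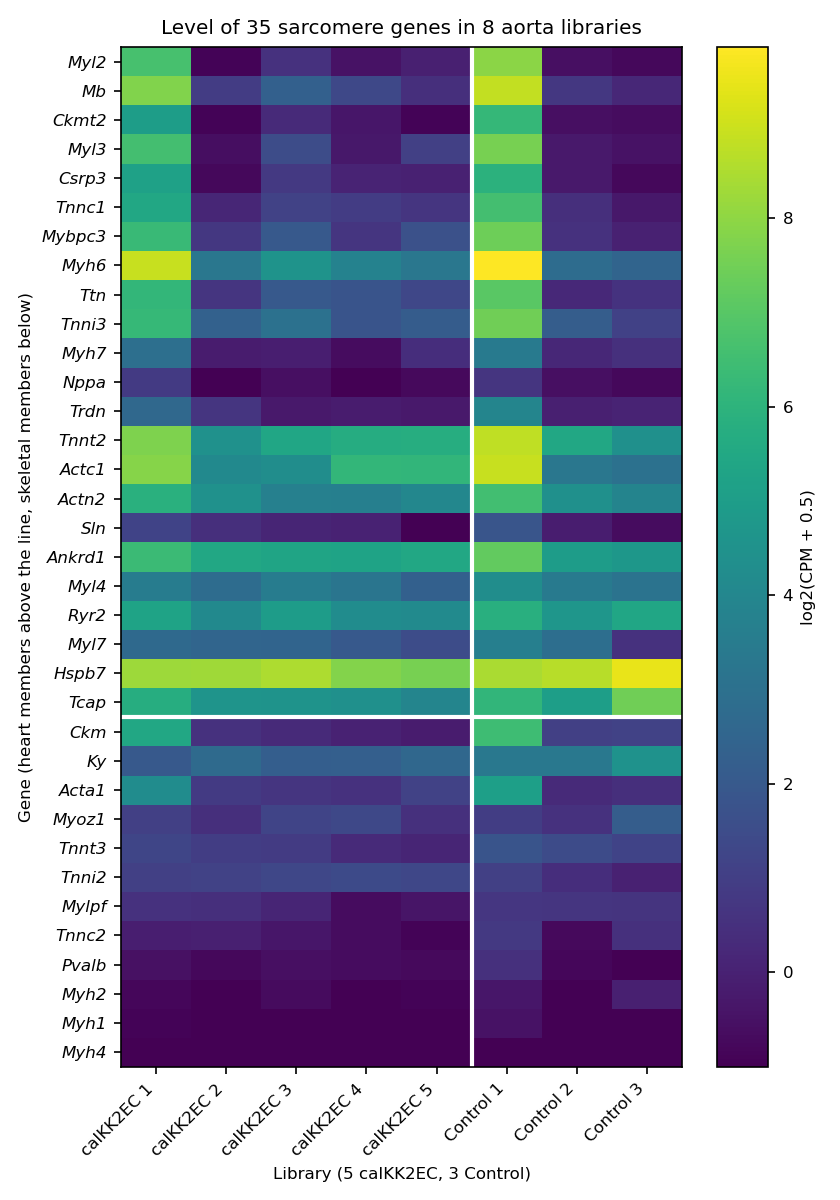
Level of the 35 genes in the 8 libraries, as a colour scale of log2(CPM + 0.5), with caIKK2EC left of Control and genes grouped as heart and skeletal. Most heart genes, such as Myh6 at 480.2 CPM in caIKK2EC 1 and 902 CPM in Control 1, are bright in these 2 libraries alone, while Hspb7 is bright in all 8.

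Both heavy chains of heart myosin were highest in these 2 libraries. Myh6, the adult heavy chain of the mouse heart, had 480.2, 9.27, 23.0, 13.4 and 9.38 CPM in caIKK2EC libraries, against 902, 6.58 and 5.05 CPM in Control libraries. caIKK2EC 1 was 20.9-fold and Control 1 39.2-fold above the highest of the other 6. Myh7, the slow heavy chain that is the lesser one in adult mouse ventricle, had 7.23, 0.379, 0.427, 0.142 and 0.841 CPM in caIKK2EC, against 10.6, 0.666 and 0.918 CPM in Control libraries. Per kilobase of exon, the level of Myh6 was 71.4 CPM and that of Myh7 0.839 CPM in caIKK2EC 1, and 134 CPM and 1.23 CPM in Control 1. Thus the same heavy chain was the higher in both libraries.

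Among the light chains, those of the ventricle set the 2 libraries apart most and those of the atrium little. Myl2, the ventricular regulatory light chain, had 100.4, 0.0421, 0.939, 0.214 and 0.453 CPM in caIKK2EC, against 248, 0.185 and 0.0918 CPM in Control libraries. Its level was 107-fold in caIKK2EC 1 and 264-fold in Control 1 above the highest of the other 6, and in caIKK2EC 2 it rested on 1 read. Myl3, the ventricular essential light chain, had 94.9, 0.169, 2.35, 0.320 and 1.58 CPM in caIKK2EC, against 194, 0.333 and 0.229 CPM in Control libraries. The same 2 libraries were high, and the other 6 were all at 2.35 CPM or below.

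Myl4, the atrial essential light chain, had 11.0, 6.66, 11.2, 8.65 and 4.43 CPM in caIKK2EC, against 19.4, 10.0 and 8.17 CPM in Control libraries. Here caIKK2EC 3 was as high as caIKK2EC 1, and no library stood far from the rest. Myl7, the atrial regulatory light chain, had 5.94, 5.35, 5.08, 3.59 and 2.33 CPM in caIKK2EC, against 12.3, 7.06 and 0.963 CPM in Control libraries. Control 3 was the lowest library for it. Per kilobase, the level of Myl7 was below that of Myl2 in Control 1 (20.8 against 127 CPM), whereas its median over the other 6 libraries was above that of Myl2 (7.35 against 0.102 CPM).

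Other atrial genes were near the detection limit. Nppa, the atrial natriuretic peptide, had 33, 0, 4, 0 and 3 counts in caIKK2EC, against 29, 5 and 2 counts in Control libraries. It was highest in the same 2 libraries, but at 1.28 CPM in caIKK2EC 1 and 1.07 CPM in Control 1. Sln, the sarcolipin that inhibits the calcium pump of atrial and skeletal muscle, had 1.79, 0.885, 0.598, 0.534 and 0 CPM in caIKK2EC, against 3.15, 0.407 and 0.138 CPM in Control libraries.

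The troponin genes of the heart were high in the same 2 libraries, with different levels in the other 6. Tnni3, the inhibitory subunit found in adult heart muscle, had 74.4, 4.59, 7.64, 2.99 and 3.95 CPM in caIKK2EC, against 177, 4.10 and 1.65 CPM in Control libraries. Tnnc1, the calcium-binding subunit of heart and slow muscle, had 44.7, 0.632, 1.67, 1.42 and 1.10 CPM in caIKK2EC, against 96.5, 0.887 and 0.321 CPM in Control libraries. Tnnt2, the cardiac tropomyosin-binding subunit, had 214, 21.7, 41.3, 52.0 and 52.2 CPM in caIKK2EC, against 439, 43.7 and 20.8 CPM in Control libraries. For Tnnt2 the other 6 libraries kept 20.8 to 52.2 CPM, and Control 1 was 8.41-fold above the highest of them, against 100.5-fold for Mb.

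Actc1, the cardiac actin, had 234, 16.9, 19.1, 70.4 and 68.6 CPM in caIKK2EC, against 484, 9.24 and 7.75 CPM in Control libraries. Besides the 2 highest libraries, caIKK2EC 4 and 5 lay above the remaining 4, although Myl2 was at 0.453 CPM or below in both. The actin of smooth muscle, Acta2, had 4797, 10016, 6784, 6080 and 6367 CPM in caIKK2EC, against 8393, 10632 and 16801 CPM in Control libraries, with caIKK2EC 1 lowest. caIKK2EC 4 and 5 therefore did not stand out for Acta2.

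Genes that hold the thick filament and the Z-disc together followed the ventricular myosin genes in part. Ttn, the titin spring, had 70.3, 1.10, 3.50, 2.99 and 1.97 CPM in caIKK2EC, against 133, 0.703 and 1.01 CPM in Control libraries. Mybpc3, the cardiac myosin-binding protein, had 79.6, 1.18, 3.54, 1.10 and 2.72 CPM in caIKK2EC, against 174, 0.961 and 0.505 CPM in Control libraries. Csrp3, a LIM protein of the Z-disc, had 36.1, 0.0843, 1.24, 0.569 and 0.485 CPM in caIKK2EC, against 61.6, 0.333 and 0.0918 CPM in Control libraries. In all 3 genes caIKK2EC 3 was the highest of the other 6. Actn2, the alpha-actinin that crosslinks thin filaments at the Z-disc, had 57.9, 21.8, 12.5, 12.3 and 15.8 CPM in caIKK2EC, against 93.3, 20.9 and 14.1 CPM in Control libraries, so its other 6 libraries were not near 0.

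Of the genes of energy supply and calcium release, Mb, Ckmt2 and Trdn were highest in the same 2 libraries. The calcium release channel Ryr2, given below, was higher in Control 3 than in caIKK2EC 1. Mb, the oxygen-binding myoglobin of heart and oxidative skeletal muscle, had 215, 1.39, 4.53, 2.06 and 0.873 CPM in caIKK2EC, against 455, 1.18 and 0.642 CPM in Control libraries. Ckmt2, the mitochondrial creatine kinase of sarcomeric muscle, had 31.5, 0.0421, 0.726, 0.285 and 0.0323 CPM in caIKK2EC, against 73.4, 0.185 and 0.138 CPM in Control libraries. Trdn, the triadin of the calcium release complex, had 5.71, 1.10, 0.342, 0.392 and 0.323 CPM in caIKK2EC, against 14.5, 0.481 and 0.551 CPM in Control libraries. Per kilobase of exon, Mb had the highest level of the heart genes in Control 1 (305 CPM), followed by Actc1 (299 CPM), Myh6 (134 CPM) and Myl2 (127 CPM). Ttn, whose annotated exons cover 116825 bases, was at 1.14 CPM per kilobase there.

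A few heart genes were expressed well above 0 in all 8 libraries, and caIKK2EC 1 and Control 1 were less far from the others or not apart at all. Hspb7, a small heat shock protein known from heart muscle, had 302, 310.95, 354, 223 and 194 CPM in caIKK2EC, against 345, 403 and 697 CPM in Control libraries. Tcap, the telethonin that caps titin at the Z-disc, had 53.4, 24.0, 23.2, 21.2 and 14.8 CPM in caIKK2EC, against 68.1, 32.8 and 177 CPM in Control libraries. Ryr2, the calcium release channel of the heart, had 38.5, 17.2, 31.4, 18.5 and 17.6 CPM in caIKK2EC, against 56.8, 25.1 and 42.3 CPM in Control libraries. Control 3 was the highest library for Hspb7 and Tcap, as it was for Acta2, while for Tcap caIKK2EC 1 was also above the other 4 caIKK2EC libraries. Myh11, the smooth muscle myosin, had 1588, 3580, 2419, 2569 and 2649 CPM in caIKK2EC, against 3335, 3995 and 8268 CPM in Control libraries. Ankrd1, a stress-responsive titin-binding repressor, lay between the patterns, with 83.2, 44.1, 39.6, 38.7 and 44.7 CPM in caIKK2EC, against 147, 30.9 and 26.1 CPM in Control libraries.

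Across the 15 sarcomere genes that met the 4-fold rule and the filter on low counts, the level in caIKK2EC 1 over that in Control 1 had a median of 0.488 and a range of 0.393 to 0.680. Over all genes tested the median of this ratio was 0.985. The 10 smooth muscle genes had a median of 0.562, so a ratio below 1 between these libraries was also seen outside heart muscle genes. Brown fat genes went the other way, with a median of 1.62 over the 9 tested, and their summed level was 2282, 232, 741, 532 and 784 CPM in caIKK2EC, against 1147, 1248 and 1332 CPM in Control libraries. In this sum, Control 1 was thus not high and caIKK2EC 1 was. Single brown fat genes differed: in 4 of the 10 (40%), caIKK2EC 1 and Control 1 were the 2 highest libraries, against 6.18% of all genes tested. Control 2 and 3 shared the number read as lane 7 with the 2 high libraries and had 6.58 and 5.05 CPM of Myh6.

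**Figure D2:**
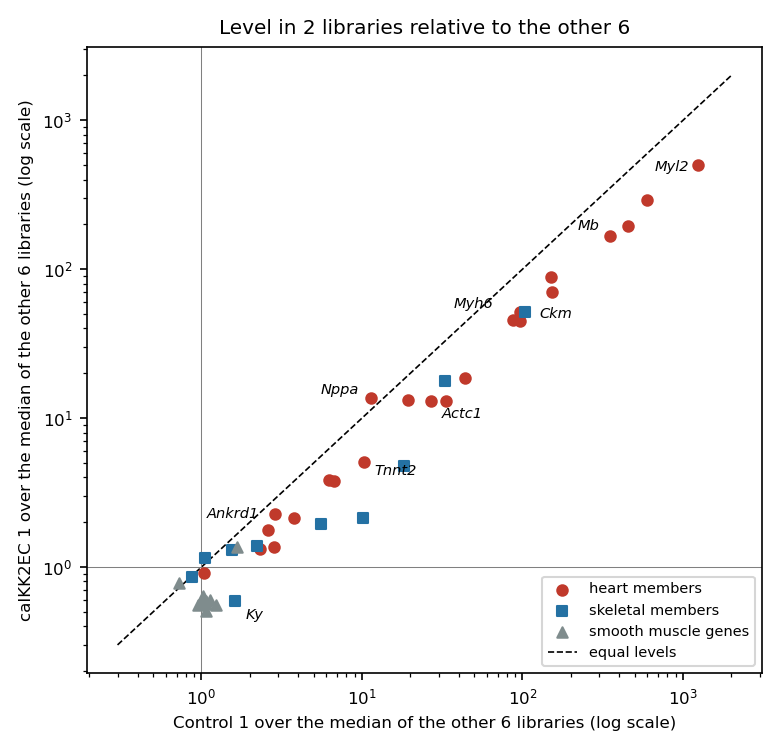
Level in caIKK2EC 1 (vertical axis) and in Control 1 (horizontal axis), each divided by the median of the other 6 libraries, both on log scales, for heart, skeletal and smooth muscle genes with a median above 0. Each point is 1 gene, the dashed line marks equal levels and the grey lines mark the median of the other 6. Heart genes other than Nppa spread along a line below the dashed one, up to Myl2, while smooth muscle genes lie near 1 on the horizontal axis and mostly below 1 on the vertical one.

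Of the 12 skeletal genes, Acta1 and Ckm, which heart muscle makes as well, were the 2 that met the 4-fold rule. Acta1, the skeletal actin, had 18.4, 1.26, 1.11, 0.961 and 1.71 CPM in caIKK2EC, against 34.0, 0.740 and 0.872 CPM in Control libraries. Ckm, the muscle creatine kinase, had 43.9, 0.969, 0.726, 0.534 and 0.388 CPM in caIKK2EC, against 87.6, 1.55 and 1.70 CPM in Control libraries. caIKK2EC 1 and Control 1 were high for both genes, as for the heart genes. The summed level of the 12 was 72.6, 13.9, 12.3, 11.2 and 11.6 CPM in caIKK2EC, against 141, 17.0 and 33.5 CPM in Control libraries.

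The genes that define fast skeletal fibres were at or near 0. Myh4, the heavy chain of the fastest fibres, had 0 counts in all 8 libraries. Myh1, another fast heavy chain, had 1, 0, 0, 0 and 0 counts in caIKK2EC, against 6, 0 and 0 counts in Control libraries. Myh2, the heavy chain of fast oxidative fibres, had 2, 0, 3, 0 and 1 counts in caIKK2EC, against 8, 0 and 10 counts in Control libraries. Pvalb, the calcium buffer of fast fibres, and Tnnc2, the fast calcium-binding troponin, stayed at 1.222 CPM or below in every library. Of the 5 regulators of the skeletal muscle lineage (Myod1, Myog, Myf5, Myf6 and Pax7), 1 had reads at all, at 0.211 CPM in caIKK2EC 2.

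Other skeletal genes had low levels, and caIKK2EC 1 and Control 1 were not the 2 highest libraries in the genes given here. For Tnnt3 and Mylpf, each of these 2 libraries was still the highest of its own group. Tnni2, the fast inhibitory troponin, had 1.55, 1.69, 1.96, 2.17 and 1.94 CPM in caIKK2EC, against 1.59, 0.850 and 0.505 CPM in Control libraries. Tnnt3, the fast tropomyosin-binding troponin, had 1.90, 1.43, 1.32, 0.712 and 0.582 CPM in caIKK2EC, against 3.04, 2.26 and 1.79 CPM in Control libraries. Mylpf, the fast regulatory light chain, had 0.971, 0.885, 0.598, 0.142 and 0.259 CPM in caIKK2EC, against 1.15, 1.07 and 1.06 CPM in Control libraries. For Mylpf all 5 caIKK2EC libraries were below the 3 Controls. Myoz1, a calcineurin-binding protein of the Z-disc, had 1.59, 0.885, 1.79, 2.03 and 0.906 CPM in caIKK2EC, against 1.44, 0.961 and 4.13 CPM in Control libraries. Ky, a Z-disc protein whose loss in the mouse causes kyphoscoliosis, had 3.54, 6.24, 4.18, 4.38 and 5.66 CPM in caIKK2EC, against 9.59, 9.43 and 22.1 CPM in Control libraries. All caIKK2EC libraries were below all Controls for Ky, and Control 3 was the highest, as for Myh11 and Hspb7.

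Between the groups, no sarcomere gene passed an adjusted p of 0.05 in edgeR's quasi-likelihood test. It tested 30 of the 35 genes (22 heart and 8 skeletal), since Nppa, Myh1, Myh2, Myh4 and Pvalb fell under the filter on low counts. Over all 14679 genes tested, edgeR called 0 higher and 0 lower (0% in each direction). At an unadjusted p under 0.05, edgeR had 1418 genes higher (9.66%) and 1097 lower (7.47%) in caIKK2EC, and of the 30 sarcomere genes 1 higher (Tnni2) and 5 lower (Ryr2, Hspb7, Tcap, Tnnt3 and Ky). DESeq2 called 659 genes higher (4.49%) and 216 lower (1.47%), among them 1 of the 30, Ky, which was lower. It gave 16 of the 30, with Myh6, Myl2 and Tnnt2 among them, neither a p-value nor an adjusted p. DESeq2 thus could not call these 16 genes in either direction.

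The fitted differences of the heart genes were large and imprecise. The log2 fold change of caIKK2EC over Control was -1.51 (SE 2.05) for Myh6, -2.02 (SE 2.55) for Myl2, -1.14 (SE 1.06) for Tnnt2 and -1.03 (SE 1.48) for Actc1. The edgeR adjusted p was 0.761 for Myh6, 0.741 for Myl2, 0.630 for Tnnt2 and 0.776 for Actc1. Of the 30 tested genes, 29 had a log2 fold change below 0, with a median of -1.46 over the heart genes and -1.17 over the skeletal genes, beside -0.02 over all genes. Control 1 is 1 of 3 libraries in its group and caIKK2EC 1 is 1 of 5 in its own.

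Without caIKK2EC 1 and Control 1, a choice made after the data were seen, most of these differences turned round. Then 15 of 21 heart genes tested had a log2 fold change above 0, all 15 of them turned from below 0, and the median was 0.73, while the median of the skeletal genes was -1.05. The summed levels did not turn: the log2 ratio of the mean summed CPM of caIKK2EC over Control was -1.19 for heart genes with all libraries and -0.69 without the 2, and -1.39 and -1.05 for skeletal genes. Hspb7 and Tcap, both high in Control 3, are part of the heart sum. In the comparison of 4 caIKK2EC with 2 Control libraries, the log2 fold change was 1.25 for Myh6, 2.37 for Actc1 and 0.56 for Ankrd1. edgeR again called 0 genes higher and 0 lower (0% each, with 1511 higher, 10.2%, and 1264 lower, 8.56%, at an unadjusted p under 0.05). DESeq2 called 657 genes higher (4.45%) and 478 lower (3.24%). Of the 29 sarcomere genes in this fit it called 4 higher and 3 lower, and 2 had no adjusted p. The higher ones were Myh6 (DESeq2 adjusted p = 0.0325), Ankrd1 (0.0199), Actc1 (0.0394) and Tnni2 (0.0244). The lower ones were Tcap (0.0224), Hspb7 (0.0171) and Ky (0.00113). The edgeR adjusted p of the higher ones was 0.171, 0.127, 0.143 and 0.139 in that order. The 2 libraries were left out for their level in heart genes, so the p-values of heart genes here depend on that choice. The 2 Controls left differ in sex and age, whose part in these values was not tested.

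Whether the groups overlapped gave a like picture. No sarcomere gene had all caIKK2EC libraries above all Controls, as 7.01% of all genes had, and 2 of the 30, Mylpf and Ky, had them all below, as 3.22% of all genes had. Without the 2 libraries, 7 were above (Myh6, Ankrd1, Ttn, Mybpc3, Actc1, Tnni2 and Acta1), where 13.9% of all genes were. Likewise 6 were below (Tcap, Hspb7, Ckm, Mylpf, Tnnt3 and Ky), where 12.7% of all genes were.

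Ky had the clearest difference of the list. Its log2 fold change of caIKK2EC over Control was -1.51 (SE 0.31), with an edgeR adjusted p of 0.107, and it was lower in 5 of 5 caIKK2EC libraries than in any Control. Without caIKK2EC 2, where edgeR called 230 genes higher (1.57%) and 129 lower (0.883%), its edgeR adjusted p was 0.0467. With each other library left out, the edgeR adjusted p of Ky was 0.0782 to 0.252, the highest without Control 3, where the log2 fold change was -0.99. Its edgeR adjusted p was 0.106 without caIKK2EC 1 and Control 1, 0.328 with lane as a covariate and 0.519 with the replicate number as a block. In DESeq2 the adjusted p was 0.000922, and in the authors' deposited table the log2 fold change was -1.52 with an adjusted p of 0.000864. The exact two-sided permutation test on log2 CPM gave an unadjusted p = 0.0357, the smallest this design of 5 against 3 allows. Every gene whose groups do not overlap gets this value, so it only restates the separation of the groups. Mylpf had the same permutation p, with an edgeR adjusted p of 0.428. The authors' deposited table held 33 of the 35 genes, gave no p-value for 16 of them, and had Ky as the 1 gene past the threshold of 0.05.

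Hspb7, Tcap, Ryr2 and Tnni2 did not pass in the full comparison. Hspb7 was at -0.80 on the log2 scale (SE 0.26) with an adjusted p of 0.177 in edgeR, and Tcap at -1.76 (SE 0.53) with 0.160. Without Control 3, the value of Tcap was -0.88 with an edgeR adjusted p of 0.508. The log2 fold change of Ryr2 was -0.75 (SE 0.33) and that of Tnni2 0.91 (SE 0.39), with edgeR adjusted p-values of 0.281 and 0.276 in that order. Without caIKK2EC 1 and Control 1, the log2 fold change was -1.01 for Hspb7, -2.32 for Tcap, -0.66 for Ryr2 and 1.51 for Tnni2. Acta2 was at -0.81 (SE 0.28) and Myh11 at -1.02 (SE 0.32), with edgeR adjusted p-values of 0.201 and 0.171. Over the 10 smooth muscle genes the median was -0.72, so the fold changes of Hspb7, Ryr2 and Ky lie beside lower smooth muscle values in caIKK2EC, whose part in them was not tested. The 5 macrophage genes summed to 6471 to 9595 CPM in caIKK2EC and 1393 to 5605 CPM in Control libraries, lowest in Control 3, the library highest for Ky, Hspb7 and Tcap. The part of this difference in cell markers was not tested either.

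**Figure D3:**
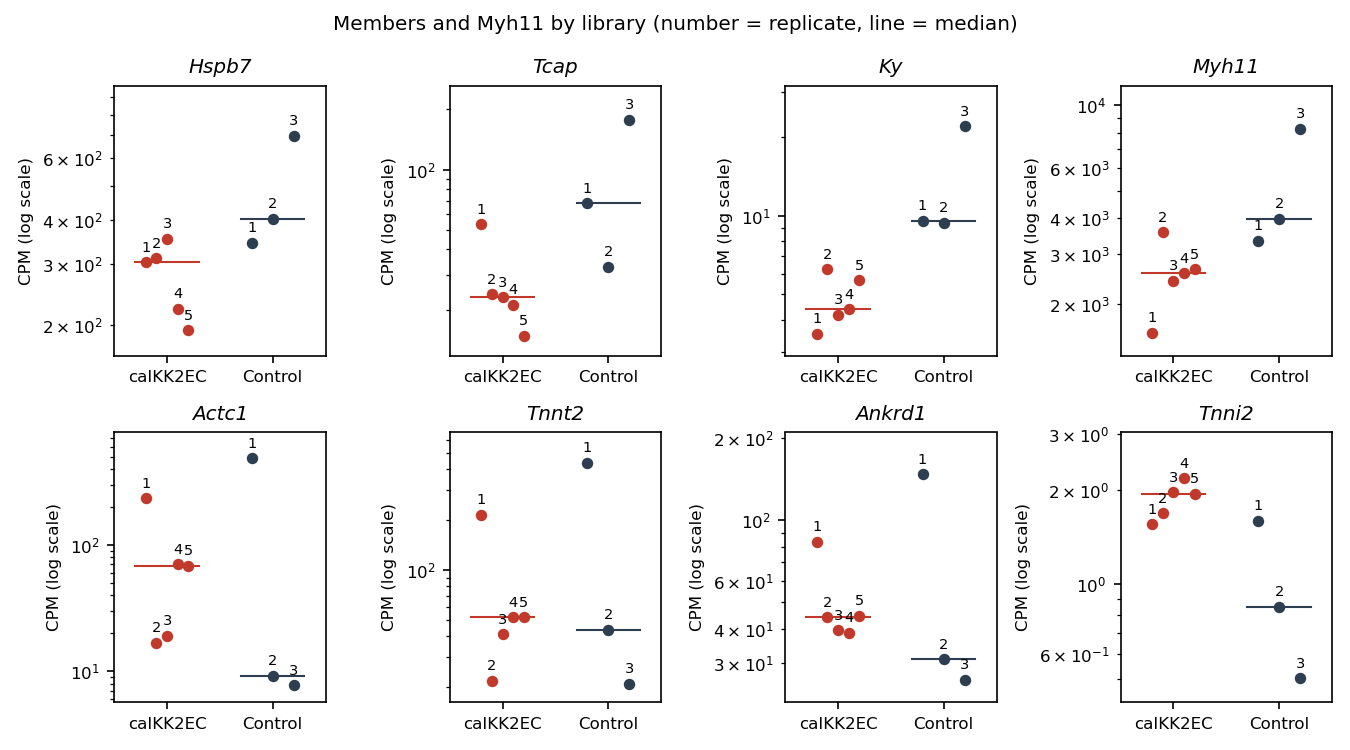
CPM on a log scale in each library for Hspb7, Tcap, Ky, Myh11, Actc1, Tnnt2, Ankrd1 and Tnni2, with caIKK2EC left of Control, replicate numbers beside the points and a line at the group's median. In the upper row Control 3 is the highest library, and in Actc1, Tnnt2 and Ankrd1 Control 1 is the highest and caIKK2EC 1 the next.

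**Figure D4:**
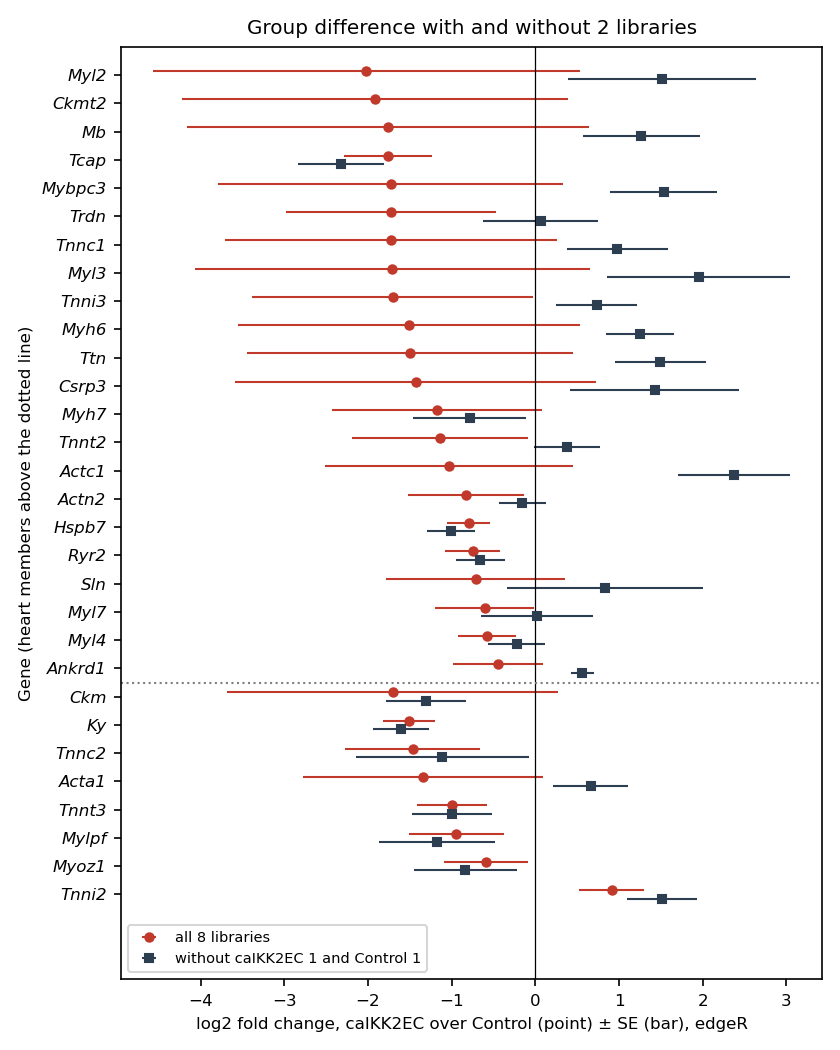
Log2 fold change of caIKK2EC over Control (edgeR) for the tested genes with all 8 libraries and without caIKK2EC 1 and Control 1, with bars of 1 SE. Heart genes such as Myh6 (-1.51 with all libraries, 1.25 without the 2) change sign, while Tcap, Hspb7 and Ky stay below 0.

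Genes outside the list showed how far the pattern reached. Of 30 other heart genes, 11 met the 4-fold rule, of 20 other skeletal genes 2 did, and none of 9 heart transcription factors did. Xirp2 stands in both the heart and the skeletal list and is counted in the 11 and in the 2. Over all genes tested the share was 0.232%, while the lists also hold genes under the filter on low counts. Pln, the phospholamban that restrains the calcium pump of the heart, had 138, 4.89, 14.1, 10.5 and 10.7 CPM in caIKK2EC, against 279, 4.55 and 8.85 CPM in Control libraries. Jph2, the junctophilin of heart muscle, had 205, 336, 300.0, 249.7 and 243 CPM in caIKK2EC, against 313, 454 and 959 CPM in Control libraries, so it followed Hspb7 and not Myh6. By edgeR, 0 of the 26 other heart genes tested and 0 of the 15 other skeletal genes tested passed in either direction, and at an unadjusted p under 0.05 there were 6 and 3 lower.

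The genes outside the list whose log2 CPM was most like that of Myh6 over the 8 libraries included Cox6a2, Pln, Casq2, Mylk3, Trim72, Fhl2 and Got1. For Acta1 they included Cox6a2, Zswim7, Fhl2, Casq2, Pln, Trim72 and Mylk3. Pearson's r of the genes named was 0.949 to 0.981 for the first set and 0.952 to 0.980 for the second, and it rests on caIKK2EC 1 and Control 1. Cox6a2, a subunit of cytochrome oxidase in striated muscle, had 23.3, 1.10, 1.37, 1.60 and 1.81 CPM in caIKK2EC, against 47.6, 1.18 and 0.505 CPM in Control libraries. Got1, an aspartate aminotransferase made in many tissues, had 70.7, 34.3, 42.1, 39.4 and 37.2 CPM in caIKK2EC, against 60.3, 33.1 and 27.1 CPM in Control libraries, with caIKK2EC 1 the higher of the 2.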

How the data were processed

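Poly(A) RNA of 8 whole aortas was read as single ends of 50 bases after a directional preparation, per the labels. The authors deposited raw counts per gene symbol, whole numbers that total 23461655 to 30808502 per library, and the precision of low genes is limited by their counts. Their deposited comparison table gives a log2 fold change, a test score (fold change over its standard error) and a p-value per gene, and normalized values as a signal. STAR 2.7.0e, FastQC 0.11.5, DESeq2 1.22.2 and the build GRCm38 (mm10) are named in the submitters' processing notes. The counting program, annotation and strand setting were not given in the sources used here.

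The genes described and the other gene lists were chosen with earlier results of these data known. All genes may be named with values. Of genes outside the list, the rule names the 8 closest to Myh6 and to Acta1 by Pearson's r among genes whose log2 CPM (prior count 2) averaged 1 or more, up to 3 of each other list by mean CPM, and Acta2. Not every gene so chosen is reported here. Fabp3 and Xirp2 are named as well, because each stands in more than 1 list. Brown fat, smooth muscle and other cell type lists were used as markers.

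Groups were compared with edgeR 4.0.16 (R 4.3.3, limma 3.58.1): TMM scaling, the default filter on low counts, a robust quasi-likelihood fit of the 14679 genes kept, on group alone, and Benjamini-Hochberg adjustment at 0.05. The SE is the fold change over the square root of F. DESeq2 1.42.0 was an alternative. Exact two-sided permutation tests used log2(CPM + 0.5). The procedures were tested on simulated data. Other alternatives were size factors, filters on low counts, the replicate number as a block, lane (read from the column names) as a covariate and each library left out. Leaving out caIKK2EC 1 and Control 1 together was added after the data were seen. Exon lengths and transcripts came from GENCODE M21, and promoters from RefSeq. The deposited column names matched all 8 samples, 27 gene names had been turned into dates, and 5938 genes had a total count of 0. Replicates are separate mice.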

Additional observations from a re-analysis of the deposited data

Results flagged for a closer look

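Among the 5 caIKK2EC libraries, caIKK2EC 1 lay far above the other 4 (a gap to the next library above Dixon's 95% critical value) in 23 of 37 items: 18 of the 23 heart genes, 3 skeletal genes and both summed levels. Chance flags about 1 in 20 such groups if the values are normally distributed, which was not tested for these CPM values. Genes of 1 tissue are also not independent of each other. Both sums are made of the same genes. The share of all genes that this rule flags is not given, so the count cannot be set against it. For thick filament genes the value in caIKK2EC 1 was 480.2 CPM (Myh6), 7.226 CPM (Myh7), 100.4 CPM (Myl2), 94.87 CPM (Myl3), 79.64 CPM (Mybpc3) and 70.32 CPM (Ttn). For thin filament genes it was 214.3 CPM (Tnnt2), 74.4 CPM (Tnni3), 44.72 CPM (Tnnc1) and 233.6 CPM (Actc1). Z-disc and related genes had 57.93 CPM (Actn2), 36.09 CPM (Csrp3), 83.18 CPM (Ankrd1) and 53.38 CPM (Tcap). The others were 1.282 CPM (Nppa), 31.55 CPM (Ckmt2), 215.3 CPM (Mb) and 5.711 CPM (Trdn). Among skeletal genes it was 18.42 CPM (Acta1), 43.9 CPM (Ckm) and 0.03885 CPM (Myh1, 1 read, with 0 in the other 4). The summed level was 2244 CPM for heart genes and 72.61 CPM for skeletal genes. Control 1 was also the highest library in 20 of the 23 heart genes, but a group of 3 is too small for this rule.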

How the results depend on the processing

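edgeR called 0 genes, while DESeq2 called 875 with all libraries and 1135 without caIKK2EC 1 and Control 1, and leaving out each library in turn gave 0 to 359 edgeR calls, the 359 without caIKK2EC 2 (230 higher, 1.57%, and 129 lower, 0.883%). Of the sarcomere genes with all libraries, edgeR called 0 and DESeq2 1 (Ky), and DESeq2 gave 16 of the 30 no p-value. Without those 2 libraries DESeq2 called 7. Leaving out each library gave 0 to 1 edgeR calls (Ky, edgeR adjusted p = 0.0467 without caIKK2EC 2). The median log2 fold change of the heart genes, -1.46, was -0.078 with the replicate block, 0.40 with lane as a covariate, 0.73 without caIKK2EC 1 and Control 1 in edgeR and in DESeq2, and -3.15 to 2.17 with each library left out. It was -3.15 without caIKK2EC 1 and 2.17 without Control 1. That of the skeletal genes, -1.17, was -0.24 with lane, -0.51 with the block and -1.35 to -0.77 with each library left out. The log2 ratio of caIKK2EC over Control of the mean summed CPM was -1.19 for heart genes and -1.39 for skeletal genes, and was -0.69 and -1.05 without both libraries, the heart sum going the other way from the heart median. With each library left out it spanned -1.96 to 0.077 for heart genes and -2.38 to -0.056 for skeletal genes, and the highest value of each was that without Control 1. Sarcomere genes whose groups do not overlap numbered 2, then 13 without both libraries and 2 to 10 with each left out. Over all genes tested, 7.01% were above and 3.22% below with all libraries. Without both, these shares rose to 13.9% and 12.7%. With each library left out, the share over all genes is not given, so those counts cannot be set against it.

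With lane as a covariate, the sign turned in 17 of 22 heart genes and 2 of 8 skeletal genes. Without caIKK2EC 1 and Control 1, it turned in 15 of 21 and 1 of 8. Values are given for 6 of the genes that turned. Myh6 had a log2 fold change of 0.53 with the replicate block, 0.66 with lane and 1.25 (edgeR) or 1.24 (DESeq2) without both libraries. Actc1 had 0.35 with the block, 0.48 with lane and 2.37 or 2.36, and Ankrd1 had 0.10, 0.29 and 0.56 or 0.55. Myl2 had 0.28 with lane and 1.51 or 1.55, Tnnt2 0.35 and 0.38 or 0.37, and Acta1 0.63 and 0.66 or 0.65. With each library left out, the ranges were -4.46 to 4.23 (Myh6), -7.64 to 7.15 (Myl2), -1.996 to 1.26 (Tnnt2), -1.92 to 3.29 (Actc1), -0.83 to 0.83 (Ankrd1) and -3.22 to 2.57 (Acta1). The cause of these changes was not tested. In the fit with the number read as lane, caIKK2EC 1 is the lone caIKK2EC library of lane 7 and is assumed to vary like the others, and lane 8 holds caIKK2EC alone, so it has no comparison of its own.

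Replicate numbers did not pair the samples: same-numbered libraries deviated together with correlations of 0.0968 to 0.335, and 5 of 6 numbered libraries were closest to their own number, a hint from the data and not the design. With the replicate block edgeR called 0 genes (769 higher and 582 lower at an unadjusted p under 0.05). Depth limits Nppa, Sln, the fast myosins, Pvalb and Tnnc2, which rest on a few reads in most libraries.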

Other observations

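Of the 34 genes that met the 4-fold rule in caIKK2EC 1 and Control 1, 10 were in none of the lists, and they were chosen after their values were seen. Smyd1, a methyltransferase of striated muscle, had 14.2, 0.421, 1.71, 0.748 and 0.550 CPM in caIKK2EC, against 26.8, 0.777 and 1.56 CPM in Control libraries. Both caIKK2EC 1 and Control 1 were far above the other 6 libraries for it, with a ratio of caIKK2EC 1 over Control 1 of 0.530. Trim72, a membrane repair protein of striated muscle, had a ratio of 0.353. Others were Lrtm1, Mylk3, Adprhl1, Lrrc2, Fsd2, Itgb1bp2 and Fitm1.

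Casq1, the calsequestrin of skeletal muscle, had 9.29, 22.0, 11.1, 10.4 and 9.25 CPM in caIKK2EC, against 25.9, 32.3 and 76.2 CPM in Control libraries. All caIKK2EC libraries were below all Controls, at -1.86 on the log2 scale (SE 0.38) with an adjusted p of 0.107 in edgeR, and Control 3 was the highest, as for Ky.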
